A study of Mus musculus with 6 samples.

Results

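Genes of the Wnt pathway were examined in whole pancreases at embryonic day 15.5 (e15.5), when the bulk of endocrine cell formation takes place. The members were all genes on the array whose symbol is that of a Wnt ligand (*Wnt*), a Frizzled receptor (*Fzd*), a secreted Frizzled-related protein (*Sfrp*) or a Dickkopf protein (*Dkk*), together with *Axin2*, *Lef1*, *Tcf7l1*, *Tcf7l2*, *Lgr5*, *Rspo1*, *Rspo3*, *Wif1*, *Ctnnb1*, *Lrp5* and *Lrp6*. They were 48 of 18194 genes with a probe set of their own, and *Tcf7*, which belongs to the same set, was not analysed here. They were chosen by symbol.

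RNA was compared between 3 *Jarid2* Δpanc samples and 3 *Jarid2* WT samples on Affymetrix Mouse Genome 430 2.0 arrays. *Jarid2* Δpanc denotes the pancreas-specific *Jarid2* knockout, in which a *Pdx1-Cre* transgene deletes floxed *Jarid2*, an accessory subunit of the Polycomb Repressive Complex 2 (PRC2). *Jarid2* WT denotes the wild-type controls. All embryos are labelled C57BL/6 and e15.5, and the titles number 3 embryos in each group, with the pancreas of 1 embryo on an array. The sources used here do not say whether these controls carried Cre. The study describes recombination as mosaic and limited to the epithelium, so that mesenchyme, endothelium and blood in the same sample keep the gene. In such whole-organ RNA, fewer cells of a type and less RNA per cell cannot be told apart.

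Wnt ligands are secreted lipid-modified proteins that bind Frizzled receptors and, in the canonical branch, the co-receptors Lrp5 and Lrp6. Receptor engagement through Dishevelled stops the Axin complex from marking β-catenin for destruction, and β-catenin then enters the nucleus and joins Tcf/Lef factors on target genes. R-spondins strengthen the signal at the membrane, Dickkopf and Sfrp proteins weaken it outside the cell, and *Axin2* is induced by the pathway in many tissues and feeds back on it. In the developing pancreas, ligands and secreted modulators come largely from mesenchyme and mesothelium, while β-catenin in the epithelium is needed for acinar cells to expand.

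No member passed the test between the groups, and the readout gene *Axin2* had nearly the same signal in both. The repressor gene *Tcf7l1*, the R-spondin genes *Rspo1* and *Rspo3* and the ligand gene *Wnt9a* lay higher in every *Jarid2* Δpanc sample than in any *Jarid2* WT sample. The inhibitor gene *Dkk1* lay lower, at signals close to the floor of 16, below which values were set to 16 before log2 was taken. At an adjusted p under 0.05 from limma over all genes, 0 of the 48 members were lower and 0 higher, as were 0% and 0% of all genes in the 2 directions. At an unadjusted p under 0.05, 3 members (6.25%) were higher against 4.36% of all genes, and 1 (2.08%) was lower against 4.44%. The groups did not overlap in 4 members that were higher (8.33%, against 5.71% of all genes) and 1 that was lower (2.08%, against 5.66%). With so few members these shares are near those of all genes.

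**Figure D1:**
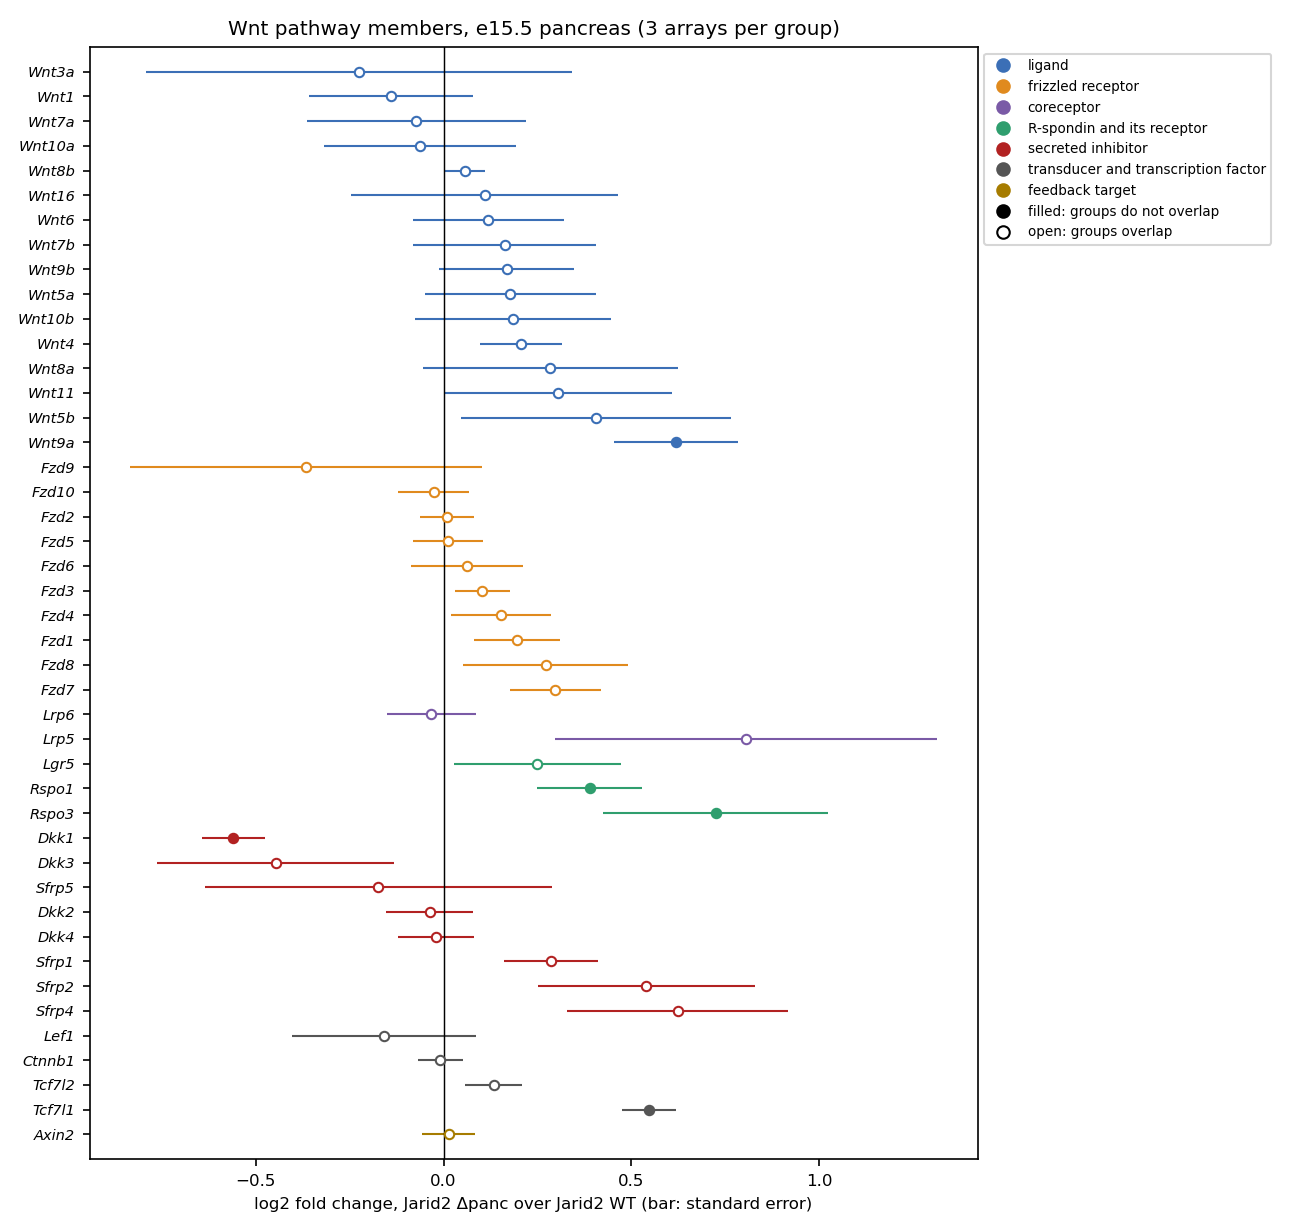
Log2 fold change of *Jarid2* Δpanc over *Jarid2* WT (horizontal axis, log2 units) for the 44 members with a signal above 16 on at least 1 array, grouped by role in colour, with bars for the standard error of limma and filled points where the 3 and 3 arrays do not overlap. *Tcf7l1* at 0.55, *Rspo3* at 0.72, *Wnt9a* at 0.62 and *Rspo1* at 0.39 are the filled points right of 0, and *Dkk1* at -0.56 is the only one left of it.

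Both groups of arrays held pancreas as labelled. *Pdx1* had signals of 421, 419 and 442 in *Jarid2* Δpanc and 445, 376 and 396 in *Jarid2* WT samples, and none of 12 measured epithelial markers differed without overlap. Of 12 acinar genes 7 lay lower without overlap in *Jarid2* Δpanc, as did 7 of 12 endocrine genes, and their part in the results below was not tested. The brightest of 3 *Jarid2* probe sets gave 392, 398 and 355 in *Jarid2* Δpanc and 335, 301 and 415 in *Jarid2* WT samples. The difference was 0.13 in log2 units (standard error 0.14), and 0.07 in the mean of all 3. The deposited values do not tell whether these probe sets lie in the deleted exon, so that they do not check the deletion. The study itself found less RNA of that exon in *Jarid2* Δpanc pancreases at e15.5 by quantitative RT-PCR. *Xist* and the Y-linked *Eif2s3y* set *Jarid2* WT replicates 1 and 2 apart as male, with *Xist* at 24 and 12, whereas the 3 *Jarid2* Δpanc samples, at 4197 to 4905, and *Jarid2* WT replicate 3, at 4390, were female. The summed signal of 16 skeletal muscle genes was 558 to 632 in *Jarid2* Δpanc samples and 445, 506 and 19214 in *Jarid2* WT replicates 1, 2 and 3. Results below are therefore also given against the remaining controls where *Jarid2* WT replicate 3 decides them.

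*Tcf7l1* encodes a Tcf/Lef factor that mostly represses Wnt targets in the absence of β-catenin. Its signal was 397, 394 and 362 in the *Jarid2* Δpanc samples, against 243, 265 and 282 in the *Jarid2* WT samples. The lowest *Jarid2* Δpanc value lay above the highest control by more than the range within either group. The means were 384 ± 19.4 in *Jarid2* Δpanc and 263 ± 19.6 in *Jarid2* WT (SD, n = 3 each), a log2 fold change of 0.55 (standard error 0.07, 95% interval 0.36 to 0.74, unadjusted p = 8.66e-04 and adjusted p = 0.218 from limma over all genes). A second probe set of the gene, with 148, 151 and 202 in *Jarid2* Δpanc and 142, 69 and 127 in *Jarid2* WT, had 0.62 and did not overlap either. The fold change was 0.49 to 0.60 when single samples were left out, and 0.45 with the sex of the samples in the fit. The lowest adjusted p of the gene over all settings was 0.0725 from limma, with trended and robust variances. With 3 samples per group an exact permutation test cannot go below a two-sided p of 0.1, which *Tcf7l1* reached, as did every other member without overlap.

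The brightest probe sets of the remaining transducers overlapped between the groups. *Ctnnb1*, which encodes β-catenin, had 8403, 9723 and 8897 in *Jarid2* Δpanc and 9034, 9212 and 8895 in *Jarid2* WT samples. Its log2 fold change was -0.01 (standard error 0.06, 95% interval -0.17 to 0.15, adjusted p = 1 from limma). A further probe set of *Ctnnb1* differed from this, with 421, 380 and 443 in *Jarid2* Δpanc and 288, 341 and 312 in *Jarid2* WT, a log2 fold change of 0.40 without overlap. *Tcf7l2*, a Tcf/Lef factor that activates targets together with β-catenin, had 342, 401 and 390 in *Jarid2* Δpanc and 345, 327 and 359 in *Jarid2* WT (0.13, standard error 0.08). *Lef1*, which is both such a factor and a frequent target of the pathway, had 36, 24 and 35 in *Jarid2* Δpanc and 40, 27 and 39 in *Jarid2* WT (-0.16, standard error 0.25, 95% interval -0.81 to 0.49).

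*Axin2*, the feedback target, had 131, 123 and 120 in *Jarid2* Δpanc and 135, 118 and 118 in *Jarid2* WT samples. The 2 groups interleaved, and the log2 fold change was 0.01 (standard error 0.07, 95% interval -0.17 to 0.20, adjusted p = 1 from limma). *Lgr5*, an R-spondin receptor and a target gene in the intestine, had 38, 52 and 58 in *Jarid2* Δpanc and 39, 35 and 50 in *Jarid2* WT. Its interval was wide, from -0.34 to 0.84 around 0.25.

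**Figure D2:**
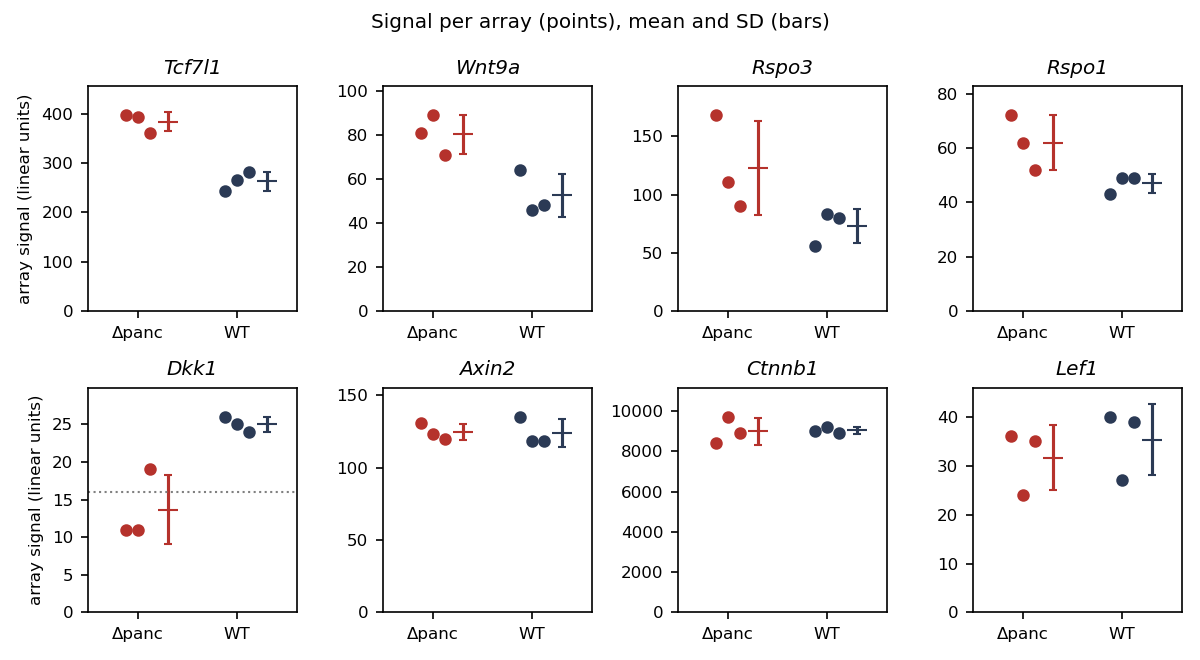
Array signal (vertical axis, linear units from 0) of 8 members in the 3 *Jarid2* Δpanc (red, left) and 3 *Jarid2* WT samples (dark, right), with the mean and SD beside the points and a dotted line at the floor of 16 for *Dkk1*. *Tcf7l1* lies at 362 to 397 in *Jarid2* Δpanc and at 243 to 282 in *Jarid2* WT, whereas *Axin2*, *Ctnnb1* and *Lef1* overlap.

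Among the ligands, *Wnt9a* alone had groups that did not overlap, with 81, 89 and 71 in *Jarid2* Δpanc and 64, 46 and 48 in *Jarid2* WT samples. The lowest *Jarid2* Δpanc value lay just above the highest control, and the log2 fold change was 0.62 (standard error 0.17, unadjusted p = 0.0156 and adjusted p = 0.415 from limma). Its second probe set overlapped between the groups (11, 14 and 27 in *Jarid2* Δpanc, 8, 3 and 16 in *Jarid2* WT), with 0.25. Of the 19 ligand genes, 16 exceeded 16 on at least 1 array and 8 on all arrays, and *Wnt2*, *Wnt2b* and *Wnt3* did so on none. Fold changes were positive for 12 and negative for 4, with a median of 0.17 and a range of -0.23 to 0.62. *Wnt4*, a ligand known for its part in kidney tubule formation, had 139, 161 and 157 in *Jarid2* Δpanc and 116, 135 and 146 in *Jarid2* WT (0.21, standard error 0.11). *Wnt5a*, a ligand of the non-canonical branch, had 176, 101 and 121 in *Jarid2* Δpanc and 105, 120 and 118 in *Jarid2* WT (0.18, standard error 0.23), so that *Jarid2* Δpanc replicate 1 stood above the others. *Wnt5b*, another non-canonical ligand, had 57, 87 and 43 in *Jarid2* Δpanc and 32, 52 and 55 in *Jarid2* WT (0.41, standard error 0.36), with overlap. *Wnt7b*, expressed in epithelia, had 112, 111 and 119 in *Jarid2* Δpanc and 135, 107 and 73 in *Jarid2* WT (0.16, standard error 0.24), and here the controls spread to either side.

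The R-spondins strengthen Wnt signals by removing the ubiquitin ligases Znrf3 and Rnf43 from the receptors. *Rspo3* had 168, 111 and 90 in *Jarid2* Δpanc and 56, 83 and 80 in *Jarid2* WT samples. *Jarid2* Δpanc replicate 1 stood far above the other 2, and the nearest values of the groups, 90 in *Jarid2* Δpanc and 83 in *Jarid2* WT, lay close together. The log2 fold change was 0.72 (standard error 0.30, unadjusted p = 0.0642 and adjusted p = 0.609 from limma), and 0.47 without *Jarid2* Δpanc replicate 1. *Rspo1* had 72, 62 and 52 in *Jarid2* Δpanc and 43, 49 and 49 in *Jarid2* WT samples, again highest in *Jarid2* Δpanc replicate 1. Its log2 fold change was 0.39 (standard error 0.14, unadjusted p = 0.0423 and adjusted p = 0.538 from limma). *Jarid2* Δpanc replicate 1 was also the highest of the 6 for 5 of 17 mesenchyme genes, such as *Tcf21* (550, against 297 and 269 in the other *Jarid2* Δpanc samples and 191, 258 and 207 in *Jarid2* WT). It was the highest for 1 of 4 mesothelial genes, *Wt1*, which is in both lists and is 1 of those 5. *Wt1* had 199 there, against 112 and 88 in the other *Jarid2* Δpanc samples and 106, 110 and 98 in *Jarid2* WT. *Jarid2* WT replicate 3 was the highest for 8 of the 17 mesenchyme genes. The mesenchyme sum of *Jarid2* Δpanc replicate 1, at 35395, was the lowest of the 3 *Jarid2* Δpanc samples. Its mean log2 difference from the control mean over the same 17 genes was instead the highest of these 3, at 0.22 against 0.12 and 0.08. *Jarid2* WT replicate 3 had 0.24 by that measure. The summed signal of 4 mesothelial genes was 951, 844 and 687 in *Jarid2* Δpanc samples and 749, 718 and 735 in *Jarid2* WT samples, and none of them differed without overlap. Blood genes were highest in *Jarid2* Δpanc replicate 1 for 6 of 8. Their summed signal was 3020, 1811 and 1720 in *Jarid2* Δpanc samples and 1357, 2057 and 1732 in *Jarid2* WT samples. The part of these cell types in the R-spondin values was not tested.

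Receptors lay near the control level. Of 10 Frizzled genes, 8 exceeded 16 on all arrays, none differed without overlap, and fold changes ranged from -0.37 for *Fzd9* to 0.30 for *Fzd7*. *Fzd7* had 322, 353 and 299 in *Jarid2* Δpanc and 253, 237 and 305 in *Jarid2* WT samples, where *Jarid2* WT replicate 3 fell within the *Jarid2* Δpanc range (standard error 0.12, adjusted p = 0.603 from limma, 0.40 without that replicate and 0.09 with sex in the fit). The fold change of *Fzd1* was 0.20 with a standard error of 0.12, that of *Fzd2* was 0.01 and that of *Fzd3* was 0.10, both with a standard error of 0.07. Further probe sets of *Fzd2*, *Fzd5* and *Fzd6* did not overlap between the groups, with 0.31, 0.58 and 0.59, while the probe sets that stand for these genes had 0.01, 0.01 and 0.06. The brighter further probe sets of *Fzd3* went the other way, with -0.22, -0.20 and -0.16, each with overlap. In the mean over all its probe sets *Fzd3* had -0.10 and was lower without overlap, whereas *Fzd1* had 0.27 in such a mean and was higher without overlap. The co-receptor gene *Lrp6* had 417, 328 and 377 in *Jarid2* Δpanc and 356, 366 and 423 in *Jarid2* WT (-0.03, standard error 0.12). *Lrp5* had 45, 65 and 38 in *Jarid2* Δpanc and 16, 25 and 52 in *Jarid2* WT. That was the highest fold change among the members, 0.81, but *Jarid2* WT replicate 3 exceeded 2 of the *Jarid2* Δpanc samples (standard error 0.51, adjusted p = 0.775 from limma). Against *Jarid2* WT replicates 1 and 2 alone the *Lrp5* difference was 1.27, and against *Jarid2* WT replicate 3 alone it was -0.11.

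Secreted inhibitors lay on both sides of the control level, and none passed the test. *Dkk1*, an antagonist that binds Lrp5 and Lrp6, had 11, 11 and 19 in *Jarid2* Δpanc and 26, 25 and 24 in *Jarid2* WT samples. Of the 3 *Jarid2* Δpanc values, 2 lay under the floor, so that the size of the difference cannot be read: the log2 fold change was -0.56 (standard error 0.08, unadjusted p = 0.00156 and adjusted p = 0.249 from limma), -0.92 with a floor of 1 and 0 with a floor of 64. *Dkk3*, a divergent member of the family, had a log2 fold change of -0.45 on its main probe set and 0.81 on the other, so that its direction is unsettled. *Dkk2* and *Dkk4* had -0.04 and -0.02, and *Wif1*, which binds Wnt ligands, did not exceed 16 on any array.

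The Sfrp genes, whose products bind Wnt ligands and Frizzled receptors, separated the controls among themselves. *Sfrp2* had 515, 601 and 514 in *Jarid2* Δpanc samples and 267, 355 and 546 in *Jarid2* WT replicates 1, 2 and 3. *Sfrp1* had 523, 577 and 540 in *Jarid2* Δpanc samples and 400, 422 and 532 in *Jarid2* WT replicates 1, 2 and 3. On these probe sets of both genes, *Jarid2* WT replicate 3 lay with the *Jarid2* Δpanc samples. Their log2 fold changes were 0.54 (standard error 0.29, adjusted p = 0.709 from limma) and 0.29 (standard error 0.12, adjusted p = 0.639 from limma). Without *Jarid2* WT replicate 3 these became 0.82 and 0.41, without *Jarid2* WT replicate 1 *Sfrp2* had 0.30, and with sex in the fit, where the comparison rests on that replicate as the only female control, *Sfrp2* had -0.01 and *Sfrp1* 0.04. All 5 probe sets of *Sfrp1* had positive fold changes, from 0.29 to 0.66. A further one, with 176, 127 and 116 in *Jarid2* Δpanc and 104, 60 and 106 in *Jarid2* WT, did not overlap. In the mean over all its probe sets *Sfrp1* had 0.45 and was higher without overlap. *Sfrp5* had -0.17 on its main probe set with overlap, and -0.48 on the other, where 13, 8 and 16 in *Jarid2* Δpanc lay under 22, 24 and 21 in *Jarid2* WT. *Sfrp4* had 58, 43 and 62 in *Jarid2* Δpanc and 24, 43 and 41 in *Jarid2* WT (0.62, standard error 0.29, and 0.35 without *Jarid2* WT replicate 1).

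In their sum, mesenchymal markers placed the 3 controls in the same order as *Sfrp1* and *Sfrp2* did. Single genes did not all keep this order, and *Col1a1*, *Col3a1*, *Vim* and *Tcf21* were among those that did not. The summed signal of 17 mesenchyme genes, such as *Col1a2*, *Dcn* and *Postn*, was 35395, 40020 and 36124 in *Jarid2* Δpanc samples and 31365, 33028 and 39100 in *Jarid2* WT replicates 1, 2 and 3. *Jarid2* WT replicate 3 was again the control within the *Jarid2* Δpanc range. Of the 17, *Tcf21* alone was higher without overlap, none was lower, and none was at the floor on all arrays. The part of mesenchyme in the Sfrp values was not tested.

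**Figure D3:**
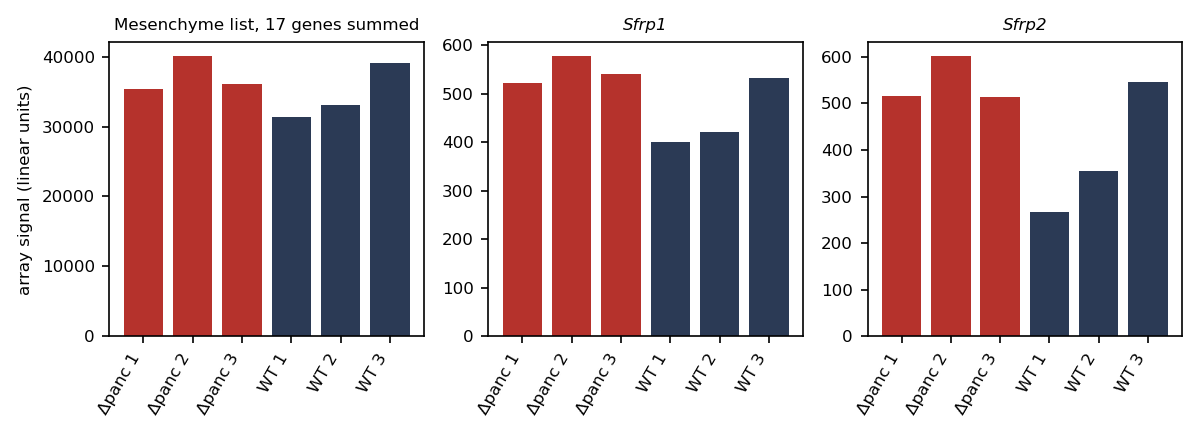
Array signal (vertical axes, linear units from 0) in the 3 *Jarid2* Δpanc (red) and 3 *Jarid2* WT samples (dark) for the sum of 17 mesenchyme genes, for *Sfrp1* and for *Sfrp2*. In all 3 panels *Jarid2* WT replicates 1 and 2 are the lowest bars, and *Jarid2* WT replicate 3, at 39100, 532 and 546, lies within the *Jarid2* Δpanc range.

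Over all members together, 30 had a positive fold change, 14 a negative one and 4 stayed at the floor on every array. The median log2 fold change was 0.11 over the 48, against 0 over all 18194 genes, and 0.13 over the 44 members above the floor on at least 1 array, against 0.01 over all such genes, of which 52.3% were positive. Per sample, the median difference of these 44 from the control mean was 0.09, 0.11 and 0.14 on the log2 scale in *Jarid2* Δpanc samples and -0.07, -0.02 and 0.06 in *Jarid2* WT replicates 1, 2 and 3. Of 47 further probe sets of 30 members, 7 were higher (14.9%) and 1 was lower (2.13%) without overlap, against 6.56% and 3.48% of 16764 further probe sets of all genes.

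**Figure D4:**
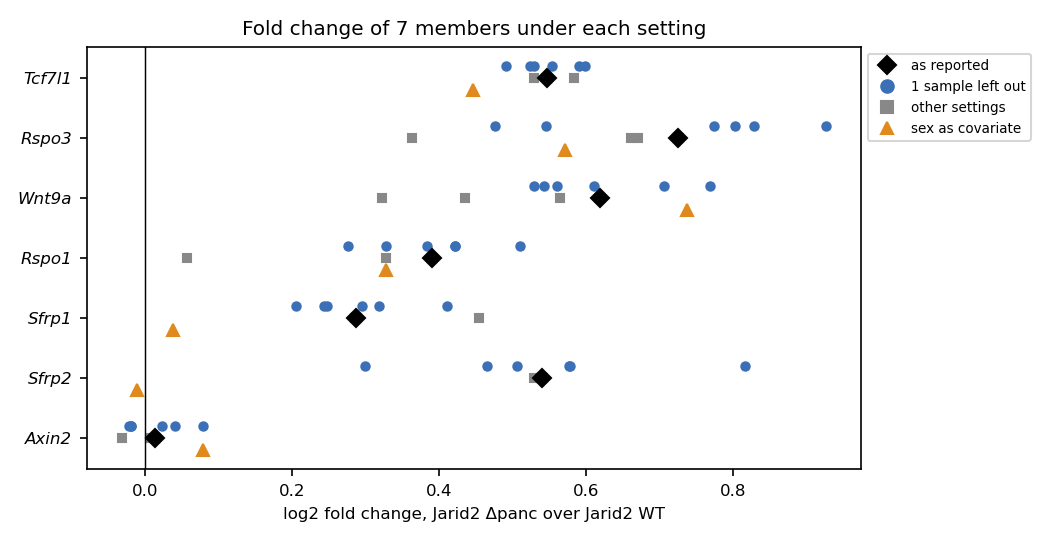
Log2 fold change of *Jarid2* Δpanc over *Jarid2* WT (horizontal axis, log2 units) of 7 members as reported (diamonds), with single samples left out (circles), under other settings (squares) and with the sex of the samples in the fit (triangles). *Tcf7l1* stays between 0.45 and 0.60, whereas *Sfrp2* spans -0.01 to 0.82.

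Other genes of the pathway were examined in a list of secretion factors, receptors, transducers, cofactors and targets, of which 73 were measured. None passed over all genes with limma, and at an unadjusted p under 0.05, 3 were higher (4.11%, against 4.36% of all genes) and 1 was lower (1.37%, against 4.44%), with a median log2 fold change of 0.04 over the 73. *Dvl2*, one of the Dishevelled genes, had 92, 88 and 88 in *Jarid2* Δpanc and 72, 73 and 68 in *Jarid2* WT samples (0.33, standard error 0.04, adjusted p = 0.218 from limma). *Tle4*, a Groucho co-repressor that binds Tcf/Lef factors, had 161, 170 and 161 in *Jarid2* Δpanc and 79, 128 and 100 in *Jarid2* WT (0.71, standard error 0.19, adjusted p = 0.415 from limma). Neither overlapped between the groups, but their fold changes were 0.14 and 0.31 in the mean over all their probe sets.

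*Lgr6*, an R-spondin receptor, had 34, 35 and 36 in *Jarid2* Δpanc and 22, 15 and 24 in *Jarid2* WT samples (0.78, standard error 0.17), so that 1 control lay under the floor. The Naked genes, listed here among the targets, encode proteins that bind Dishevelled and restrain the signal. They lay on opposite sides of the control level: *Nkd2* had 40, 34 and 44 in *Jarid2* Δpanc and 53, 51 and 46 in *Jarid2* WT (-0.35, standard error 0.12), and *Nkd1* had 121, 114 and 87 in *Jarid2* Δpanc and 90, 64 and 74 in *Jarid2* WT (0.50, standard error 0.19). Of the 14 targets in the list, 9 had positive fold changes (64.3%, against 52.3% of all genes above 16 on at least 1 array) and 5 negative ones. *Ryk*, a Wnt receptor with an inactive kinase domain, had 604, 582 and 509 in *Jarid2* Δpanc and 418, 520 and 447 in *Jarid2* WT (0.29, standard error 0.11). For *Nkd1* and *Ryk* the groups overlapped.

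The promoters of the members that stood apart are shown because PRC2 is known to sit on promoters rich in CpG dinucleotides in mammalian cells. RefSeq windows of GRCm38.p6 were at hand for 32 of the 48 members, and the 250 bases before the start site were read. Among the 4 members higher without overlap, *Tcf7l1*, *Wnt9a* and *Rspo1* had a window, and *Axin2*, which did not differ, is printed beside them. Capitals mark CpG.
Tcf7l1 (chr6:72789046-72789295, minus strand): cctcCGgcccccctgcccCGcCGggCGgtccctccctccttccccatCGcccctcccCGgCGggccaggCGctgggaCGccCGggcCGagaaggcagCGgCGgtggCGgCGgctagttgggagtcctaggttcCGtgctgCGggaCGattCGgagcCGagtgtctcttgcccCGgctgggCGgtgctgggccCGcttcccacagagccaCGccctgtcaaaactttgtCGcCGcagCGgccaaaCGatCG
Wnt9a (chr11:59306680-59306929, plus strand): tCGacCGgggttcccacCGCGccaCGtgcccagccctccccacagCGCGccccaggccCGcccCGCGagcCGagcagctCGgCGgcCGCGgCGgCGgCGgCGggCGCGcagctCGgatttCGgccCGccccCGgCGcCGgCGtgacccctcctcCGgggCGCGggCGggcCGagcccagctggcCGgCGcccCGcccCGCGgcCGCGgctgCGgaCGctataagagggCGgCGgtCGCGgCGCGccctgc
Rspo1 (chr4:124986180-124986429, plus strand): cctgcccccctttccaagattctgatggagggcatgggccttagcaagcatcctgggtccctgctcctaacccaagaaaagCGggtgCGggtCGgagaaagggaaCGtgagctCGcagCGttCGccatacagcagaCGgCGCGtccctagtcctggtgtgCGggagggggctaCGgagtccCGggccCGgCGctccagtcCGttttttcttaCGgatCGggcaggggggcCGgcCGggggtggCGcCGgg
Axin2 (chr11:108920099-108920348, plus strand): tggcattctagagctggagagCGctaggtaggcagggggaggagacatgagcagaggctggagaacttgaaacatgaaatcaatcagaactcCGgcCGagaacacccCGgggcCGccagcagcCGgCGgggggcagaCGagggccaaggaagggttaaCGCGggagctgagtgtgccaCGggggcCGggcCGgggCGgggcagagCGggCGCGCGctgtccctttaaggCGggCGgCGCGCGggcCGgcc

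They held 29, 48, 22 and 24 CpG. The median was 22 over the 40 windows of members and 6 over 32851 windows of all genes, so that the gene with equal signals was no poorer in CpG than *Rspo1*. As a description of these windows, at least 29 CpG were found in 6.78% of all windows, at least 48 in 0.186%, at least 22 in 14.8% and at least 24 in 12%. Windows of members whose groups overlapped held from 4 CpG, in a window of *Wnt5b*, to 44, in that of *Wnt4*.

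Letters of the Tcf/Lef type (CTTTG followed by A or T at both of the next bases, on either strand) were found in 6 of the 40 member windows (15%), against 14.8% of all windows. None of the 4 windows above held a match. *Dkk1*, the member that lay lower, held 2, at 117 and 98 bases before the start, shown in capitals within 56 bases.
Dkk1 (chr19:30549573-30549628, minus strand): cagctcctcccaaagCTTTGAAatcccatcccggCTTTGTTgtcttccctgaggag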

How the data were processed

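Total RNA of e15.5 pancreases (50 ng, 2 cycles of cDNA synthesis) was hybridized to Affymetrix arrays. The deposited intensities of 45101 probe sets were made by the authors with MAS5, per the labels (version not given), and are linear whole numbers with a mean of 150 on each array after 2% was trimmed at each end. The methods of the study name RMA and LIMMA, but RMA needs scanner files, which were not used here. A description label that names islets in glucose was not followed.

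A floor of 16 was applied before the log2 step. Of 35890 annotated probe sets, 34958 had 1 symbol, and each of 18194 genes was read from its brightest one. The floor replaced 26.5% to 29% of the values of an array, and the number of arrays limits the precision. The group difference was fitted with lmFit and eBayes of limma 3.58.1 under R 4.3.3 (4 residual and 0.604 prior degrees of freedom, no block), with Benjamini-Hochberg adjustment over all genes at 0.05. The fit was tested on simulated data.

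Members were chosen by symbol, and both members and lists were chosen with earlier results of these data known. Named members were those past the threshold, those without overlap and with a mean of at least 64 in a group, the 8 with the highest mean, the 8 with the lowest p, and *Axin2*, *Lef1*, *Lgr5* and *Ctnnb1*, and among other pathway genes the 6 with the lowest p. *Wnt4*, *Wnt5a*, *Wnt5b*, *Wnt7b*, *Lrp5*, *Fzd9*, *Sfrp5*, the remaining *Dkk* genes and further probe sets were named after their values were seen. Probe sets were not compared with each other in level. Marker lists of acinar, endocrine, epithelial, mesenchymal and skeletal muscle cells are given above, and those of smooth muscle, endothelium, nerve, blood, liver, intestine, mesothelium and kidney held 0 genes past the threshold and 0 or 1 without overlap. Alternatives covered single samples, the replicate number as a block, sex, quantile normalization, other floors and thresholds, a filter on dim genes, other probe sets per gene and trended variances.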

Additional observations from a re-analysis of the deposited data

How the results depend on the processing

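No member and no other pathway gene passed an adjusted p under 0.05 with limma under any of the planned fits. By an unadjusted p under 0.05, with or without a log2 fold change beyond 0.29, the counts were 1 lower and 3 higher among the members and 1 lower and 3 higher among the other genes. Members without overlap numbered 6 to 10 higher and 1 to 3 lower when single samples were left out, with 10 higher without *Jarid2* WT replicate 3 and 3 lower without *Jarid2* WT replicate 2. Groups of 3 and 2 separate more easily: 12.5% to 20.8% of the members were then higher, against 9.56% to 10.8% of all genes, and 2.08% to 6.25% of the members were lower, against 8.58% to 10.5% of all genes. With all samples, members without overlap numbered 8 higher and 2 lower with the mean of all probe sets, and 0 lower with a floor of 64. The shares of all genes were not counted under these 2 settings, so that the counts say nothing particular about the members. With dim genes left out, 0 of 21 members were lower without overlap, against 845 of 9960 genes. The median of the members was 0.0755 to 0.13 with single samples left out, lowest without *Jarid2* Δpanc replicate 3, and 0.0081 with a floor of 64. The replicate block left every fold change as it was and called 0 members. Same-numbered samples did not deviate together (correlations -0.02, -0.01 and -0.02), and the titles do not say whether the numbers pair embryos.

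Directions turned as follows. With single samples left out, fold changes ranged from -0.0501 to 0.0759 for *Fzd2*, -0.11 to 0.0592 for *Lrp6*, -0.34 to 0.0289 for *Lef1*, -0.0652 to 0.0401 for *Ctnnb1* and -0.0227 to 0.0783 for *Axin2*. With sex in the fit, *Fzd2* had -0.13, *Lgr5* -0.0417, *Sfrp2* -0.011 and *Ctnnb1* 0.0155. With quantile normalization, *Fzd2* had -0.0037, *Ctnnb1* 0.0828 and *Axin2* -0.0315. With the mean of all probe sets, *Fzd3* had -0.10, *Lrp6* 0.13, *Ctnnb1* 0.15, *Tcf7l2* -0.0145 and *Nkd1* -0.064. The causes were not tested. *Tcf7l1*, *Wnt9a*, *Rspo1* and *Rspo3* kept a positive sign under each setting that measured them. Since their groups did not overlap, leaving out single samples, moving the floor or adding sex could not have turned it. A floor of 64 left 0.06 for *Rspo1* and 0.32 for *Wnt9a*, and the mean of all probe sets left 0.36 for *Rspo3*. Over all genes the counts at an adjusted p under 0.05 from limma were 24 lower and 1 higher with trended and robust variances. With sex in the fit, the comparison rests on *Jarid2* WT replicate 3 as the only female control. That sample also held the skeletal muscle signal, so that no count is given for that fit. Signals near the floor limit what can be read of *Dkk1* and of other dim members, since 30 of the 48 exceeded 16 on every array.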
